A study of Mus musculus with 2 samples.

Results

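The genes described here encode histone modifiers and chromatin remodelers. They were chosen by symbol and a minimum count, with earlier results of these data known. The rule took every row of the count matrices whose symbol starts with Kdm, Kmt2, Hdac, Setd, Smarc or Arid, or is Chd followed by a digit. Each row also had to hold at least 50 UMIs (unique molecular identifiers, each 1 counted RNA molecule) over both libraries. Of 30431 genes in the matrices, 78 matched the symbols and 74 met the minimum: 18 Kdm, 5 Kmt2, 11 Hdac, 9 Setd, 13 Smarc, 8 Arid and 10 Chd genes. The 4 under the minimum were Arid3c with 1 UMI, Kdm6bos with 2, Arid5a with 34 and Setd6 with 38. The members nearest above it were Arid3a with 94 and Kdm1b with 119.

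Histones carry acetyl and methyl groups that mark chromatin as open or closed. Kmt2 and many Setd proteins add methyl groups to histone H3, Kdm proteins take methyl groups off, and Hdac proteins take off acetyl groups, which as a rule lowers transcription. Most Smarc and some Arid proteins are subunits of the BAF complex, which slides or evicts nucleosomes with energy from ATP, and Chd proteins are ATP-driven remodelers of another family. In neurons these enzymes take part in activity-dependent transcription, and mutations in many of them cause intellectual disability or epilepsy in people.

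Nuclei came from the dorsal CA1 field of the hippocampus of male C57BL/6J mice carrying Calb1::Cre and Tdtomato, which all animals shared. Repeated kainate injections (5 mg/kg), given at an age of 6 to 7 weeks, produced status epilepticus that diazepam (4 mg/kg) ended, and tissue was taken 12 weeks later; control mice of the same line received vehicle, and 2 mice are named for each condition, though it is not stated if both went into its library. There was 1 library per condition, made with the 10x 3′ v2 single-nucleus chemistry, so no difference between epilepsy and control could be tested: each has no replicate check, and nuclei are not replicates. Levels are given as CPM, the summed UMIs of a gene per 1e6 UMIs of a cell class in a library, with exact 95% Poisson intervals, and differences as log2 ratios of epilepsy to control with exact 95% conditional intervals. These intervals cover counting error only, not differences between animals, dissections or libraries.

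The control library held 3661 nuclei with a median of 3447 UMIs, the epilepsy library 3078 with a median of 2443, and 16 barcodes occurred in both. After likely doublets were removed, clusters were named from marker genes, with all member genes left out of the clustering. CA1 pyramidal-like nuclei, the excitatory neurons of the field, numbered 2841 in control and 2340 in epilepsy. Among them 684 and 490 were deep-like and 1299 and 1101 superficial-like, the sublayers toward stratum oriens and toward stratum radiatum. Interneuron-like nuclei numbered 197 and 144, oligodendrocyte-like nuclei 175 and 258. The oligodendrocyte-like nuclei were shallow, with medians of 795 and 595 UMIs, and carried the summed CA1 pyramidal markers at 22.2% of the pyramidal level in control and 23.7% in epilepsy. In interneuron-like nuclei the same share was 24.4% and 23.8%.

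In CA1 pyramidal-like nuclei the members held 0.644% of the UMIs in control and 0.644% in epilepsy (log2 ratio -2.4e-05, -0.02 to 0.02). With TMM factors, which shift every log2 ratio in this class by -0.09, the summed ratio was -0.09 (-0.10 to -0.07), so whether the sum differs depends on the scaling. Of the 70 members with at least 100 UMIs in this class, 3 were at least 1.5-fold higher in epilepsy and 0 at least 1.5-fold lower, against a background of 5.38% and 3.66% of 9219 genes. The members' share past 1.5-fold was thus no higher than that of other genes. The median log2 ratio was -0.01 over the members and -0.01 over all genes. The counting interval lay above 0 for 13 of the 70 and below 0 for 9. With TMM factors those counts were 8 and 17. The 8 above 0 were then Chd7, Kdm4d, Kdm4b, Chd3, Setd1a, Arid1a, Arid1b and Smarca4. Kdm5c, Kdm6b and Hdac4, given below, thus had intervals above 0 only without TMM factors. The same counts were not made over all genes, so they are not read as a result about the members. Kdm1b, Kdm8, Hdac7 and Arid3a had too few UMIs in the class to be counted. Of these, Kdm1b, a demethylase of histone H3 lysine 4, stood at 7.71 CPM in control and 3.77 CPM in epilepsy, and it overlaps Tpmt and Dek on the other strand.

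**Figure D1:**
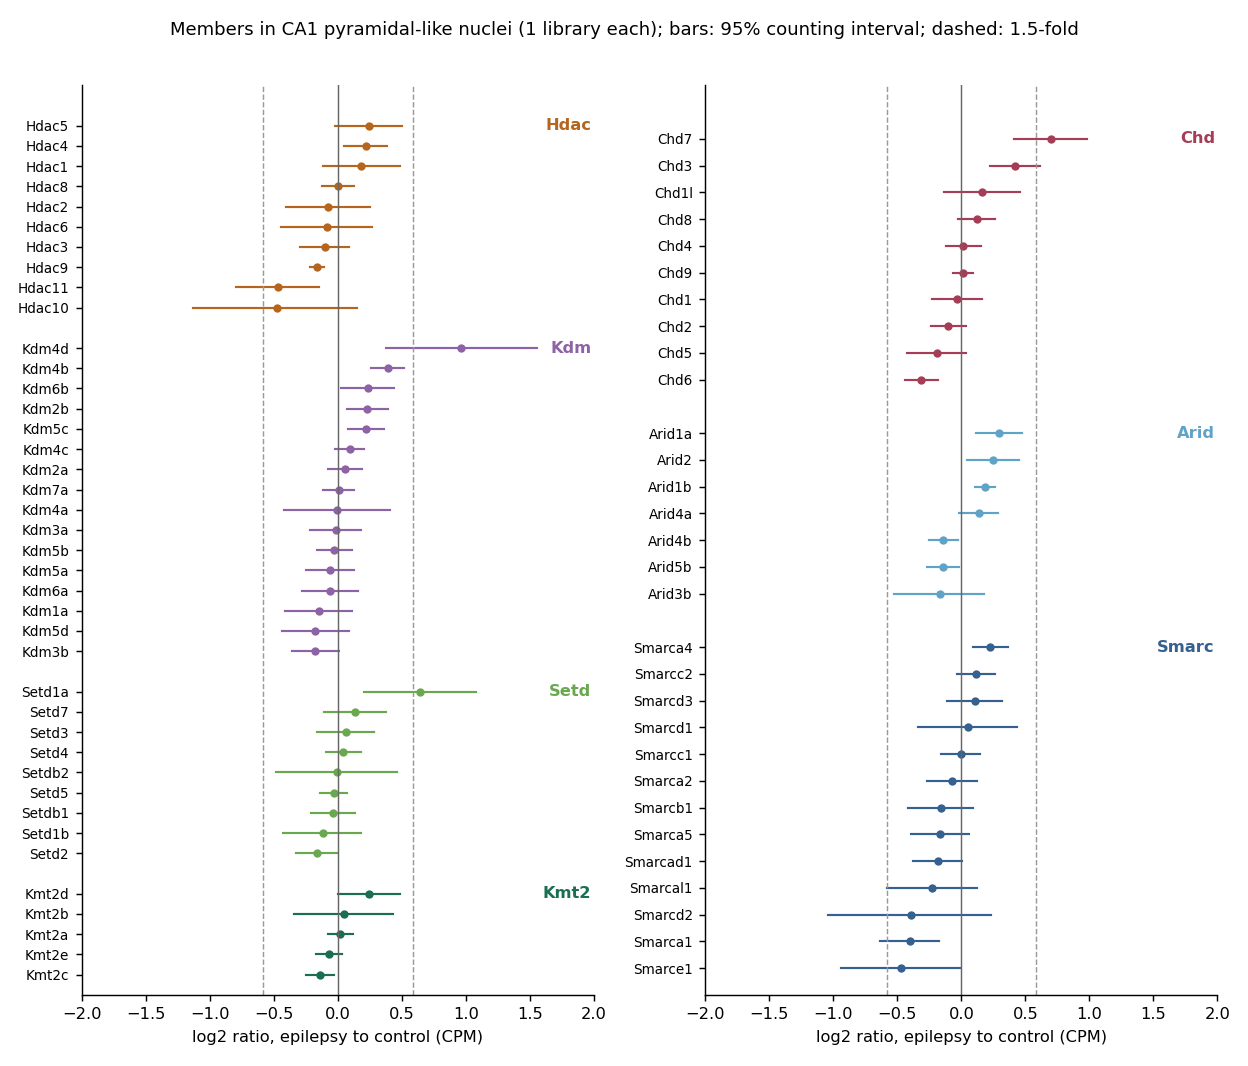
Log2 ratio of epilepsy to control (x axis) for the 70 members with at least 100 UMIs in CA1 pyramidal-like nuclei, grouped by family; points are the ratios of 1 library to 1 library, bars 95% counting intervals and dashed lines 1.5-fold. Chd7, Kdm4d and Setd1a lie to the right of the upper dashed line and no member lies to the left of the lower one.

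Among the writers of histone methylation, 1 gene, Setd1a, was past 1.5-fold. The Kmt2 and Setd sums had log2 ratios of -0.04 and -0.01, and of -0.12 (-0.18 to -0.07) and -0.10 (-0.16 to -0.04) with TMM factors. Kmt2a, the H3 lysine 4 methyltransferase with the most UMIs of its family, stood at 231 CPM in control and 234 CPM in epilepsy, a log2 ratio of 0.02 (-0.08 to 0.12). Kmt2c, an enhancer-bound methyltransferase of the same mark, stood at 198 CPM (189 to 207) in control and 179.7 CPM (169 to 191) in epilepsy, a log2 ratio of -0.14 (-0.25 to -0.03). The intervals of Kmt2b, Kmt2d and Kmt2e held 0. Among the Setd genes, Setd5, a gene tied to intellectual disability, had the most UMIs and stood at 195 CPM in control and 190.3 CPM in epilepsy. Setd1a, the catalytic subunit of an H3 lysine 4 methyltransferase complex, lay higher in epilepsy, at 9.66 CPM (7.81 to 11.8) in control and 15.1 CPM (12.1 to 18.6) in epilepsy, a log2 ratio of 0.64 (0.21 to 1.08), or 1.18 with nuclei thinned to 1000 UMIs. Its level rests on 94 UMIs in control and 88 in epilepsy, and its span (chr7:127776670-127800122, GRCm38, plus strand) overlaps another annotated gene, Gm49388, on the same strand, so its reads may be shared. The other 8 Setd genes lay within 1.5-fold. Setd2, which places the H3 lysine 36 mark of transcribed genes, had a ratio of -0.17 (-0.32 to -0.01).

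The erasers of methylation showed no difference in sum that held under both scalings. The 18 Kdm genes together held 0.126% of the UMIs in control and 0.133% in epilepsy (log2 ratio 0.07, 0.03 to 0.12), which became -0.01 (-0.05 to 0.03) with TMM factors. The median log2 ratio of the 16 counted members was 0.00041, and 8 of them lay above 0. Kdm4b, a demethylase of H3 lysine 9 (chr17:56326062-56402870, plus strand), stood at 116 CPM (109 to 122) in control and 151 CPM (141 to 162) in epilepsy, a log2 ratio of 0.39 (0.26 to 0.52), and the intervals of the libraries did not overlap. Its relative Kdm4c, the family's member with the most UMIs, stood at 167 CPM in control and 178 CPM in epilepsy, with a ratio of 0.09 (-0.02 to 0.21). Kdm4d, another member of this subfamily (chr9:14462548-14500482, minus strand), was sparse, with 47 UMIs in control and 55 in epilepsy. Its levels were 4.83 CPM in control and 9.43 CPM in epilepsy, a log2 ratio of 0.97 (0.38 to 1.56), or 1.64 with nuclei thinned to 1000 UMIs. Kdm5c, an X-linked H3 lysine 4 demethylase mutated in a human intellectual disability syndrome, stood at 107 CPM in control and 124 CPM in epilepsy, a ratio of 0.22 (0.08 to 0.36). Its Y-linked counterpart Kdm5d stood at 36.6 CPM in control and 32.4 CPM in epilepsy, a ratio of -0.18 (-0.44 to 0.08). The intervals of this X and Y pair overlapped narrowly, and the difference between them was not tested. Of the demethylases of H3 lysine 27, Kdm6a stood at 49.4 CPM in control and 47.3 CPM in epilepsy. The activity-regulated Kdm6b stood at 47.7 CPM in control and 56.1 CPM in epilepsy, a ratio of 0.23 (0.03 to 0.44); it overlaps its antisense gene, and the use of strand in counting was not stated.

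The sum of the deacetylases was slightly lower under both scalings, and most of this came from Hdac9. The 11 Hdac genes held 0.123% of the UMIs in control and 0.115% in epilepsy (log2 ratio -0.10, -0.14 to -0.06), and the ratio was -0.19 (-0.23 to -0.14) with TMM factors. Without Hdac9, the other 10 summed to 412 CPM in control and 418 CPM in epilepsy, a ratio of 0.02 (-0.06 to 0.09), or -0.07 (-0.14 to 0.01) with TMM factors. Most of these UMIs belonged to Hdac9 (chr12:34047580-34917095, minus strand), a class IIa deacetylase that binds MEF2 factors and shuttles between nucleus and cytoplasm. Hdac9 stood at 821 CPM (803 to 839.6) in control and 733 CPM (712 to 756) in epilepsy, a log2 ratio of -0.16 (-0.22 to -0.11). The intervals of the libraries were separate, but the difference is small. Of its class IIa relatives, Hdac4 stood at 73.8 CPM in control and 85.9 CPM in epilepsy, a ratio of 0.22 (0.05 to 0.39), and Hdac5 at 30.6 CPM in control and 36.2 CPM in epilepsy, a ratio of 0.24 (-0.02 to 0.50) whose interval held 0. Hdac11, the lone class IV enzyme, stood at 27 CPM (23.9 to 30.5) in control and 19.5 CPM (16.1 to 23.5) in epilepsy, a log2 ratio of -0.47 (-0.80 to -0.15). The class I enzymes Hdac1 and Hdac2, targets of broad deacetylase inhibitors, had intervals that held 0, at 23.5 and 26.7 CPM and 22.2 and 21.1 CPM in control and epilepsy. Hdac9 is also a very long gene. Per 100 kb of annotated gene span its control level was 94.5 CPM, below that of Hdac3 at 336 CPM. Hdac9 was also higher in deep-like than in superficial-like nuclei, as given below. The summed deep markers in pyramidal-like nuclei stood at 701 CPM in control and 537 CPM in epilepsy. The part of the sublayer mix in the Hdac9 ratio and in the Hdac sum was not tested.

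Among the BAF subunits that are members, Smarca4 and the Arid1 genes pointed the same way. Smarca4 (BRG1, chr9:21616169-21704230, plus strand), a motor subunit, stood at 109 CPM (103 to 116) in control and 128 CPM (119 to 137) in epilepsy, a log2 ratio of 0.23 (0.09 to 0.36). The motor that can take its place, Smarca2 (BRM), stood at 60.8 CPM in control and 57.9 CPM in epilepsy, with a ratio of -0.07 (-0.27 to 0.13). Arid1a and Arid1b (the latter at chr17:4994332-5347656, plus strand) are DNA-binding subunits that exclude each other from the complex. Arid1a stood at 62.7 CPM in control and 76.8 CPM in epilepsy, a ratio of 0.29 (0.11 to 0.47), and Arid1b at 354 CPM (342 to 366) in control and 403 CPM (386 to 419) in epilepsy, a ratio of 0.19 (0.11 to 0.26). On the other side lay Smarce1, a BAF subunit with a DNA-binding HMG domain, at 13.8 CPM in control and 9.94 CPM in epilepsy, a ratio of -0.47 (-0.94 to -0.01). Smarca1 (chrX:47809368-47892974, minus strand) is not a BAF subunit but SNF2L, a motor of the ISWI family; it stood at 51.7 CPM (47.3 to 56.4) in control and 39.1 CPM (34.2 to 44.5) in epilepsy, a log2 ratio of -0.40 (-0.64 to -0.17). Of the 13 Smarc genes, all counted here, 4 lay above 0, with a median of -0.16. The share of all genes above 0 is not set beside this count, so it is not read as a result about the family. Arid4b, a subunit of the SIN3 corepressor that overlaps Ggps1 on the other strand, and Arid5b, a partner of the histone demethylase Phf2, had ratios of -0.14 (-0.25 to -0.03) and -0.15 (-0.27 to -0.02).

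Chd genes lay on both sides. Chd3, a motor of the NuRD deacetylase complex, stood at 49.4 CPM (45.1 to 54) in control and 66.2 CPM (59.7 to 73.1) in epilepsy, a log2 ratio of 0.42 (0.22 to 0.62). The ratios of the other NuRD motors had intervals that held 0: Chd4 stood at 116 CPM in control and 118 CPM in epilepsy with 0.01 (-0.12 to 0.15), and Chd5 at 47.2 CPM in control and 41.3 CPM in epilepsy with -0.19 (-0.42 to 0.04). Chd9, with the most UMIs of the family, stood at 345 CPM in control and 348 CPM in epilepsy. Chd6 (chr2:160946978-161109075, minus strand) stood at 153 CPM (145 to 161) in control and 123 CPM (114 to 132) in epilepsy, a log2 ratio of -0.31 (-0.44 to -0.18). Chd7 (chr4:8690406-8867659, plus strand), the gene mutated in CHARGE syndrome, stood at 21.6 CPM (18.8 to 24.7) in control and 35 CPM (30.3 to 40.1) in epilepsy, a log2 ratio of 0.70 (0.41 to 0.98). Chd7 is abundant in oligodendrocytes, and the 7 oligodendrocyte markers, none of them at 0, summed to 116 CPM in control and 169 CPM in epilepsy within the pyramidal-like nuclei. For each 1000 oligodendrocyte marker UMIs there were 21.9 (control) and 20.7 (epilepsy) Chd7 UMIs in oligodendrocyte-like nuclei, but 186 and 207 in pyramidal-like nuclei. The 7 interneuron markers summed to 215 CPM in control and 261 CPM in epilepsy in the same nuclei and the 7 microglia markers to 37.7 CPM in control and 55 CPM in epilepsy, again with none at 0. Of the 7 mitochondrially encoded genes counted in the class, 0 were past 1.5-fold, with a median log2 ratio of -0.27. The 3 deep markers summed to 701 CPM in control and 537 CPM in epilepsy in these nuclei. The 3 superficial markers summed to 327 CPM in control and 314 CPM in epilepsy, so the sublayer mix may differ between the libraries. The part of these values in the members' ratios was not tested.

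**Figure D2:**
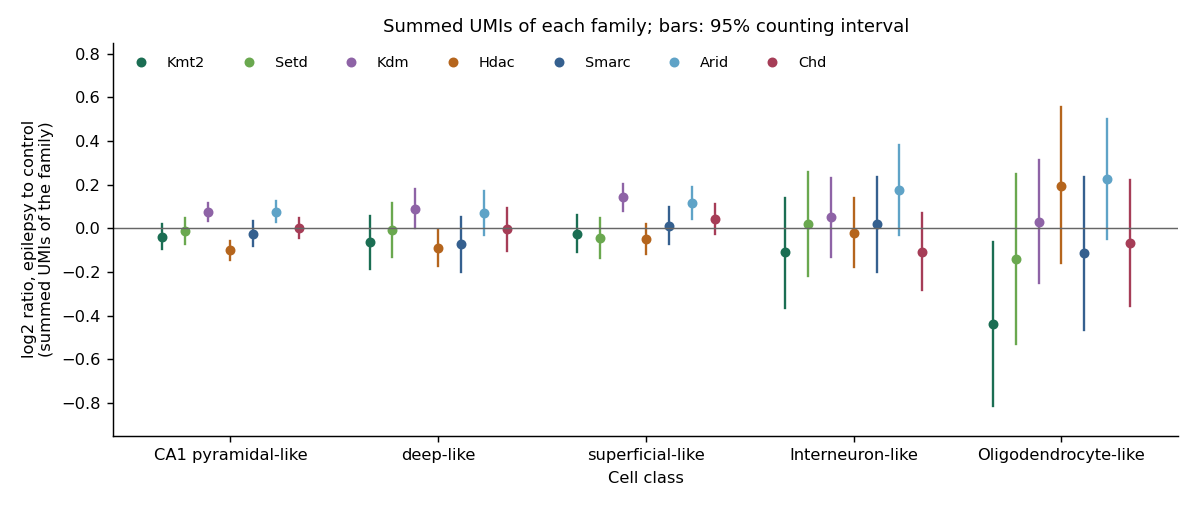
Log2 ratio of epilepsy to control for the summed UMIs of each family (y axis) in 5 cell classes (x axis); points are ratios of 1 library to 1 library and bars 95% counting intervals. In CA1 pyramidal-like nuclei the Kdm and Arid sums lie at 0.07 and 0.08 and the Hdac sum at -0.10, with intervals clear of 0; with TMM factors the Kdm and Arid sums lie at -0.01.

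Within the sublayers the ratios were again mostly small. In deep-like nuclei 54 members had at least 100 UMIs, of which 0 were at least 1.5-fold higher and 1 lower, against 3.05% and 4.8% of 4748 genes. That member was Smarca2, at 35.4 CPM (28.4 to 43.6) in control and 19.7 CPM (12.7 to 29) in epilepsy, a log2 ratio of -0.85 (-1.55 to -0.19) that rests on 88 UMIs in control and 25 in epilepsy. It was -0.16 with the sublayers split at the median marker score and -1.59 with nuclei thinned to 500 UMIs. In the same nuclei Smarca4 stood at 95.7 CPM (83.9 to 109) in control and 131 CPM (112 to 153) in epilepsy, a ratio of 0.46 (0.16 to 0.75), which was 0.11 with likely doublets kept. Kdm6b stood at 45.4 CPM in control and 66 CPM in epilepsy, a ratio of 0.54 (0.11 to 0.96), Arid1b at 289.9 CPM in control and 333 CPM in epilepsy, a ratio of 0.20 (0.02 to 0.38), and Arid4b at 205 CPM in control and 159.6 CPM in epilepsy, a ratio of -0.36 (-0.61 to -0.13). Smarca1 and Hdac9 lay below 0 as they did over all pyramidal-like nuclei, with -0.57 (-1.13 to -0.04) and -0.12 (-0.21 to -0.02). Chd7 stood at 39.8 CPM in control and 55.8 CPM in epilepsy in these nuclei, from 99 and 71 UMIs. The interval of its ratio lay above 0. Only Smarca4 and Kdm6b kept an interval above 0 in deep-like nuclei with TMM factors, and those of Arid1b and Chd7 then held 0. The summed interneuron markers in deep-like nuclei stood at 242 CPM in control and 266 CPM in epilepsy and the oligodendrocyte markers at 141 CPM in control and 156 CPM in epilepsy, and their part in the ratios was not tested.

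In superficial-like nuclei 64 members had at least 100 UMIs, of which 1 was at least 1.5-fold higher and 0 lower, against 4.24% and 3.36% of 6867 genes. The member was Chd7, at 14.8 CPM (11.4 to 18.9) in control and 31 CPM (24.5 to 38.6) in epilepsy, a log2 ratio of 1.07 (0.57 to 1.57), beside summed oligodendrocyte markers of 104 CPM in control and 189.8 CPM in epilepsy. Thinned to 500 UMIs per nucleus, its ratio was 0.24. Kdm4b stood at 137 CPM (126 to 149) in control and 196 CPM (179.6 to 214) in epilepsy, a log2 ratio of 0.52 (0.34 to 0.69), and at 0.19 when thinned to 1000 UMIs. In deep-like nuclei it stood at 82.8 CPM in control and 93.5 CPM in epilepsy, a ratio of 0.18 (-0.16 to 0.51), and the difference between the sublayers was not tested. Kdm5c had a ratio of 0.39 (0.18 to 0.59) and Smarcd3, a BAF subunit, one of 0.42 (0.11 to 0.72). The interval of Smarcd3 held 0 with TMM factors, while that of Kdm5c still lay above 0. Below 0 lay Smarca1 with -0.42 (-0.77 to -0.08), Arid5b with -0.30 (-0.53 to -0.07), Chd6 with -0.25 (-0.44 to -0.07) and Hdac9 with -0.10 (-0.19 to -0.01). In sum the members held 0.638% of the UMIs in control and 0.656% in epilepsy (log2 ratio 0.04, 0.01 to 0.07), which turned to -0.07 (-0.10 to -0.05) with TMM factors, a shift of -0.11 for all genes of this class.

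Between the sublayers each library gives its own reading. Of 55 members with at least 100 UMIs over both sublayers in each library, 3 were at least 1.5-fold higher in superficial-like than in deep-like nuclei in both libraries and 2 at least 1.5-fold lower, against 4.99% and 3.03% of 4946 genes. These counts are near the background. The 3 were Smarca2, Kdm4b and Kdm2b, and the 2 were Arid5b and Chd7. Smarca2 (chr19:26605050-26778322, plus strand) stood at 80.1 against 35.4 CPM (superficial against deep) in control, a log2 ratio of 1.18 (0.84 to 1.53), and at 83.9 against 19.7 CPM in epilepsy, 2.09 (1.49 to 2.75). Split at the median marker score, its ratios were 0.68 in control and 0.87 in epilepsy, and thinned to 500 UMIs the control ratio was 0.35. Kdm4b stood at 137 against 82.8 CPM in control, a ratio of 0.73 (0.50 to 0.97), and at 196 against 93.5 CPM in epilepsy, 1.07 (0.78 to 1.37). Kdm2b, which recruits Polycomb proteins to CpG islands, had ratios of 0.59 (0.32 to 0.87) and 0.66 (0.32 to 1.02), and Arid1b of 0.44 (0.32 to 0.57) and 0.45 (0.28 to 0.61). Kdm2b overlaps Rnf34 on the other strand.

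On the deep side lay Arid5b (chr10:68092520-68278740, minus strand). It stood at 114 against 225 CPM (superficial against deep) in control, a log2 ratio of -0.98 (-1.16 to -0.81), and at 92.5 against 241 CPM in epilepsy, -1.38 (-1.63 to -1.13). Hdac9 stood at 696 against 1051 CPM in control and 651 against 970 CPM in epilepsy, with ratios of -0.59 (-0.67 to -0.52) and -0.58 (-0.68 to -0.47). Its ratio was nearly the same in both libraries and its intervals were the narrowest of the members named in this comparison. Chd7 was also on this side, with -1.43 (-1.91 to -0.96) and -0.85 (-1.33 to -0.37). Kdm7a, a demethylase of H3 lysine 9 and lysine 27, followed with -0.43 (-0.63 to -0.23) and -0.29 (-0.56 to -0.02), but its epilepsy ratio turned under other settings. Splitting all pyramidal-like nuclei at the median marker score, which takes in nuclei between the sublayers, made the ratios smaller: those of Kdm4b became 0.36 in control and 0.30 in epilepsy, those of Hdac9 -0.35 and -0.26, and the epilepsy ratio of Arid5b -0.62.

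**Figure D3:**
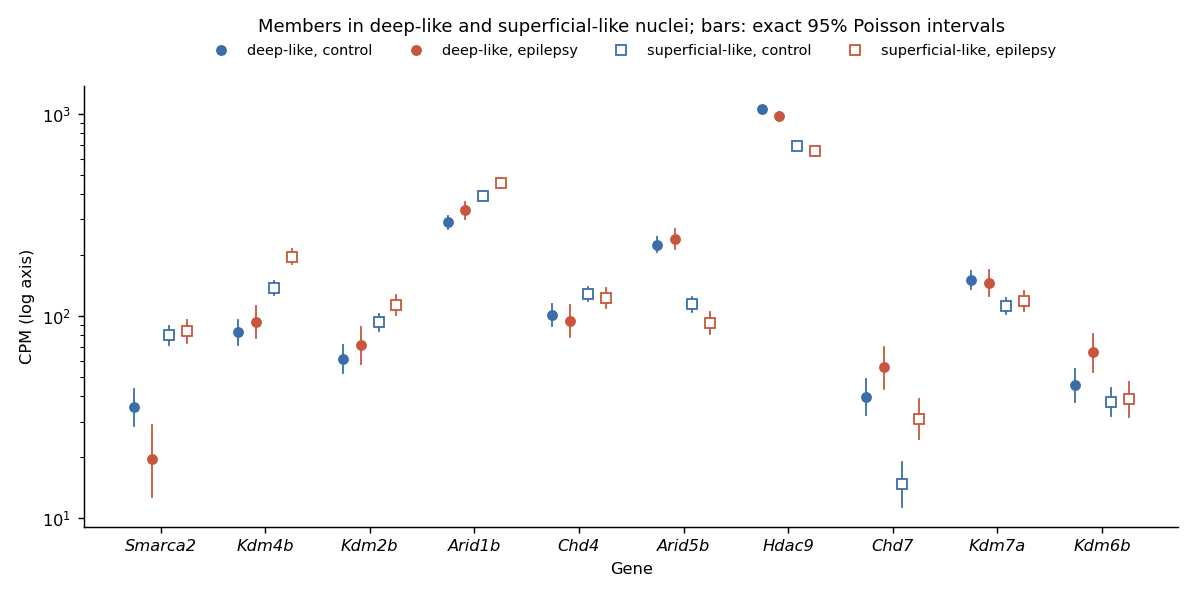
Level in CPM (log y axis) of 10 members (x axis), 5 leading on the superficial and 5 on the deep side, in deep-like (filled circles) and superficial-like nuclei (open squares) of the control (blue) and epilepsy (red) library; bars are exact 95% Poisson intervals. Smarca2 lies near 80 CPM in superficial-like nuclei and at 35.4 and 19.7 CPM in deep-like nuclei, and Arid5b and Hdac9 lie the other way round.

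The sequence before the gene start is shown for the sublayer members that RefSeq's promoter table (GRCm38.p6) holds among the leading 2 on each side, as the start regions of the members that lead the comparison. CpG dinucleotides, which are dense in the promoters of broadly used genes, are in capitals, and bases after the earliest annotated start are left out. The Smarca2 window (chr19:26604910-26605049, plus strand) holds 16 CpG in 140 bases, that of Arid5b (chr10:68278741-68278976, minus strand) 4 in 236, and that of Hdac9 (chr12:34917096-34917345, minus strand) 0 in 250.
Smarca2: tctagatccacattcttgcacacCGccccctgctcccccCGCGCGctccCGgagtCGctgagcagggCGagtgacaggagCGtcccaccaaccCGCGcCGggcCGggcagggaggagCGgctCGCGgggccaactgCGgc
Arid5b: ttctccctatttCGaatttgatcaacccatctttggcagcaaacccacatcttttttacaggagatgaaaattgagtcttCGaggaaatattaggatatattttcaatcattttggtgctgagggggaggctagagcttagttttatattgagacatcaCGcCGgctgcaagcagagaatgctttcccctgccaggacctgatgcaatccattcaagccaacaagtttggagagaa
Hdac9: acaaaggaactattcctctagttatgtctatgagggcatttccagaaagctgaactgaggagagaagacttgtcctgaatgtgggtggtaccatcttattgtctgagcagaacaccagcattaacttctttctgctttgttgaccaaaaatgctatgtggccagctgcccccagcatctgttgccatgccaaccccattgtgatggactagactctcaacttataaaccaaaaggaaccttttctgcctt
Of the 74 members, 55 were in that table. They had a median of 19 CpG in the 250 bases before the RefSeq start, against 5 over the 27025 genes of the table. CpG content in these windows did not follow the sublayer side among the members named. On the deep side Hdac9 had 0, Arid5b 4 and Kdm7a 56, the highest of the 55. On the superficial side Chd4 had 12, Kdm2b 27, Smarca2 28 and Arid1b 37. The RefSeq starts of Kdm2b and Arid1b lie 724 and 742 bases inside the GENCODE span, so their windows are not sequence before the gene start. Before both starts, Smarca2 had 16 CpG and Kdm7a 52. The GC box GGGCGG, searched on both strands, was in 65.5% of the members' windows and 32.7% of all. The cyclic AMP response element TGACGTCA, also searched on both strands, was in 0 of 55 and in 1.56% of all. These are letter matches only. The start used was the one nearest the GENCODE start for members, but the first in coordinate order for all genes. The genes of the table also include many under the minimum of UMIs. The contrasts with all genes are therefore not read as traits of the members.

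Interneuron-like nuclei differed from CA1 pyramidal-like nuclei in members of several families. Of 68 members with at least 50 UMIs over both classes in each library, 7 were at least 1.5-fold higher and 5 at least 1.5-fold lower in interneuron-like nuclei in both libraries, against 15% and 13.2% of 8687 genes. The minimum is mostly met through the larger pyramidal-like class, so a member low in interneuron-like nuclei could enter on few UMIs there, and these counts support nothing by themselves. Among the 7 were 4 deacetylases (Hdac3, Hdac4, Hdac6 and Hdac8), with Smarca2, Arid2 and Chd5. The list is not complete, as Hdac7 was not among the members counted. Without thinning, Hdac7 had a UMI in 18.3% of interneuron-like nuclei in control and 13.2% in epilepsy. In deep-like nuclei that share was 1.02% in control and 0.816% in epilepsy. Its level in pyramidal-like nuclei was 1.75 CPM in control and 2.4 CPM in epilepsy. Smarca2 stood at 197 against 60.8 CPM (interneuron-like against pyramidal-like) in control, a log2 ratio of 1.70 (1.41 to 1.97), and at 205 against 57.9 CPM in epilepsy, 1.82 (1.42 to 2.2). Hdac4 (chr1:91928779-92195699, minus strand) had ratios of 1.33 (1.04 to 1.61) and 1.40 (1.03 to 1.75). Hdac3, the catalytic subunit of the NCoR corepressor, had 1.21 (0.88 to 1.52) and 0.97 (0.45 to 1.45). The X-linked Hdac8, which acts on cohesin, had 0.75 (0.50 to 0.99) and 0.86 (0.53 to 1.19), and the tubulin deacetylase Hdac6 1.10 (0.46 to 1.69) and 1.51 (0.68 to 2.26). Lower in interneuron-like nuclei were Kdm7a with -1.24 (-1.73 to -0.79) and -1.44 (-2.21 to -0.77), Kdm4b with -0.97 (-1.47 to -0.51) and -1.56 (-2.35 to -0.87), and Arid1b with -0.66 (-0.90 to -0.42) and -0.62 (-0.94 to -0.31). Setd4 and Chd1l, the latter from 4 and 1 UMIs, made up the 5. Kdm7a stood at 42.3% and 36.8% of its pyramidal level, beside 24.4% and 23.8% for the pyramidal markers.

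Oligodendrocyte-like nuclei were compared with pyramidal-like nuclei in the same way. Of 67 with at least 50 UMIs over both classes in each library, 12 were at least 1.5-fold higher and 9 lower in both libraries, against 20.1% and 23.9% of 8599 genes. Here too the minimum is mostly met through the pyramidal-like nuclei, and only 13 members had 50 UMIs over both libraries in the oligodendrocyte-like nuclei themselves. Chd7, which takes part in oligodendrocyte differentiation and myelination, stood at 404 against 21.6 CPM (oligodendrocyte-like against pyramidal-like) in control and 353 against 35 CPM in epilepsy, log2 ratios of 4.23 (3.80 to 4.64) and 3.33 (2.88 to 3.76). Kdm6a (chrX:18162575-18279936, plus strand) had 1.91 (1.32 to 2.45) and 1.76 (1.12 to 2.35), and Smarca2 1.61 (1.02 to 2.15) and 1.63 (1.03 to 2.18). Arid2, a subunit of the PBAF form of the complex, had 1.65 (0.99 to 2.24) and 1.41 (0.76 to 1.99), and Arid4b 1.11 (0.72 to 1.47) and 1.08 (0.67 to 1.46). On the low side Hdac9 stood at 231 against 821 CPM in control and 179 against 733 CPM in epilepsy, with ratios of -1.83 (-2.35 to -1.36) and -2.03 (-2.61 to -1.51). Its level was 28.1% and 24.5% of the pyramidal level, beside 22.2% and 23.7% for the pyramidal markers, and the part of RNA from pyramidal nuclei in the Hdac9 UMIs was not tested. With mixed clusters kept in their class the Hdac9 ratios were -0.64 and -0.83, and the control ratio of Arid2 was 0.84. Chd9 had ratios of -0.66 (-1.20 to -0.18) and -0.91 (-1.48 to -0.39), Kdm7a of -1.20 (-2.26 to -0.31) and -1.26 (-2.32 to -0.37), and Setd4, from 6 and 7 UMIs in oligodendrocyte-like nuclei, of -1.61 (-3.06 to -0.48) and -1.48 (-2.80 to -0.43).

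**Figure D4:**
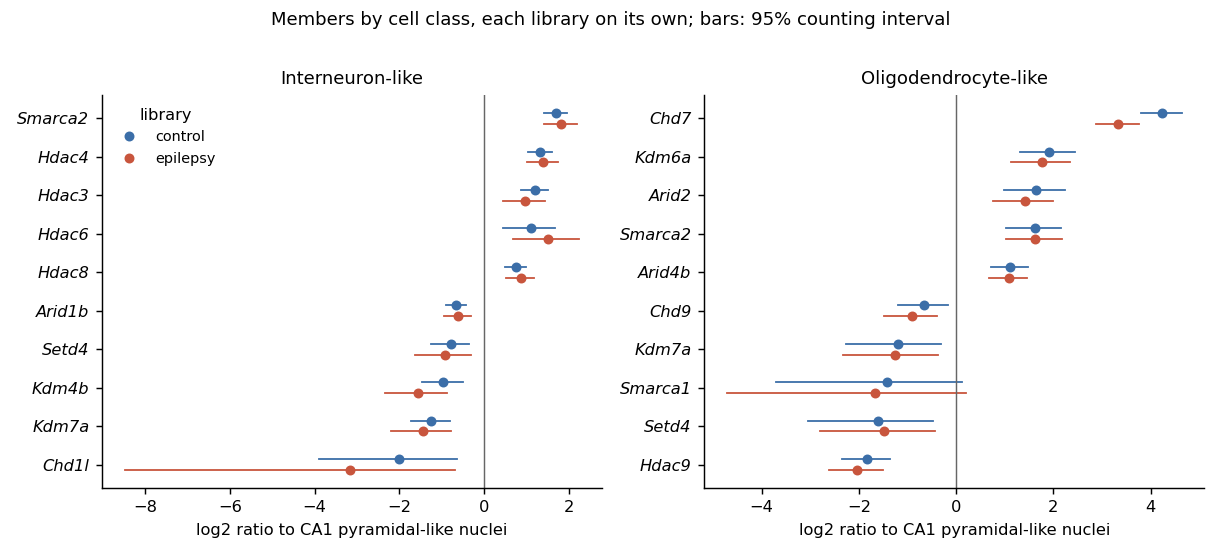
Log2 ratio of the level in interneuron-like (left) and oligodendrocyte-like nuclei (right) to CA1 pyramidal-like nuclei (x axis) for the members named in each comparison (y axis), in the control (blue) and epilepsy (red) library; bars are 95% counting intervals. The point for Chd7 in oligodendrocyte-like nuclei lies at 4.23 in control and 3.33 in epilepsy, and Smarca2 lies to the right in both classes.

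Several members work as alternatives to each other, and the share of one in the UMIs of the pair does not depend on the total of a class. Counts of different genes also depend on their length, so a share is read across classes, not as which gene is more active. Smarca2 made up 27% (22.2 to 32.2), with the Clopper-Pearson interval in parentheses, of the Smarca2 and Smarca4 UMIs in deep-like control nuclei and 41% (37.7 to 44.5) in superficial-like ones. Among interneuron-like control nuclei the share was 64.4% (57.3 to 71), and among oligodendrocyte-like ones 61.7% (46.4 to 75.5). In epilepsy these shares were, in the same order, 13% (8.61 to 18.6), 39.4% (35.3 to 43.7), 63% (53.1 to 72.1) and 67.4% (51.5 to 80.9). Deep lay below superficial and superficial below interneuron in both libraries, with separate intervals, and the libraries' intervals overlapped in each of these classes except the deep-like one. The deep-like epilepsy share rests on 25 Smarca2 UMIs, and the deep-like Smarca2 ratio was smaller with the sublayers split at the median marker score. Over all pyramidal-like nuclei the shares were 35.8% (33.5 to 38.1) in control and 31.2% (28.5 to 34.1) in epilepsy, with intervals that overlapped. Hdac4 made up 7.86% of the Hdac4 and Hdac9 UMIs in deep-like and 8.94% in superficial-like control nuclei, against 22.4% (19 to 26.2) in interneuron-like ones. In epilepsy these were 8.66%, 10.9% and 27.1% (21.9 to 32.7). Arid1a made up 15% (14 to 16.2) of the Arid1a and Arid1b UMIs in pyramidal-like and 26.7% (20.8 to 33.4) in interneuron-like control nuclei, and 16% (14.7 to 17.4) and 25% (17.4 to 33.9) in epilepsy. Kdm4b made up 44.7% (42 to 47.4) of the Kdm4b and Kdm4c UMIs in superficial-like control nuclei and 50.4% (47.2 to 53.6) in epilepsy. Kdm6a made up 90.6% (75 to 98) of the Kdm6a and Kdm6b UMIs in oligodendrocyte-like control nuclei, from 32 UMIs in all, against 50.9% (47.7 to 54.1) in pyramidal-like ones. Chd3 made up 29.8% (27.6 to 32.1) of the Chd3 and Chd4 UMIs in pyramidal-like control nuclei and 36% (33.1 to 39) in epilepsy. For Smarcc1 and Smarcc2, scaffold subunits of BAF, the Smarcc1 share was 50.6% (48.3 to 52.9) in pyramidal-like and 50% (41 to 59) in interneuron-like control nuclei.

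**Figure D5:**
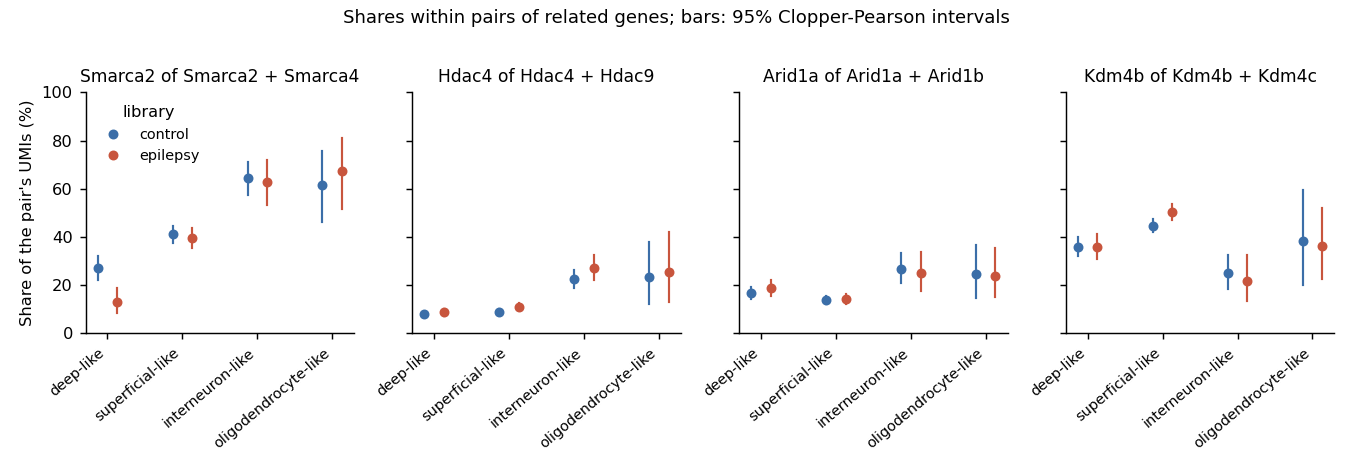
Share of the first gene in the UMIs of a pair of related genes (y axis, percent) in 4 cell classes (x axis) of the control (blue) and epilepsy (red) library; bars are 95% Clopper-Pearson intervals. The Smarca2 share goes from 27% in deep-like to 64.4% in interneuron-like control nuclei, and the Hdac4 share from 7.86% to 22.4%.

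Other hippocampal classes were large enough in 1 library only, so they are given against the CA1 pyramidal-like nuclei of that library with no second reading, and the members named were picked after their values were seen. In 153 dentate granule-like control nuclei Chd7 stood at 119.5 CPM (83.7 to 165), a log2 ratio of 2.47 (1.92 to 2.98). Smarca2 there stood at 222 CPM (172 to 282), a log2 ratio of 1.87 (1.48 to 2.24), and Hdac9 at 435 CPM (364 to 516), a log2 ratio of -0.92 (-1.18 to -0.67). In 52 CA2/CA3 pyramidal-like epilepsy nuclei Hdac9 stood at 469 CPM (375 to 580.3), a log2 ratio of -0.64 (-0.97 to -0.33), and Arid5b at 60.7 CPM (30.3 to 109), a log2 ratio of -1.17 (-2.17 to -0.32). Hdac9 was thus below its CA1 pyramidal-like level in both of these classes.

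In interneuron-like nuclei 42 members had at least 50 UMIs, of which 2 were at least 1.5-fold higher in epilepsy and 3 lower, against 5.52% and 7.32% of 3386 genes. The higher were Smarcad1, a remodeler, with 0.83 (-0.01 to 1.66), and Kdm5b, an H3 lysine 4 demethylase, with 0.63 (-0.01 to 1.27), both with intervals that held 0. The lower were Kdm2b, with -0.64 (-1.47 to 0.12), Chd6 and Hdac5. Chd6 stood at 265 CPM (228 to 308) in control and 169 CPM (128 to 219) in epilepsy, a log2 ratio of -0.65 (-1.11 to -0.21), on the same side as in pyramidal-like nuclei. Hdac5 stood at 80.4 CPM in control and 42.2 CPM in epilepsy, from 53 UMIs in control and 14 in epilepsy, a ratio of -0.93 (-1.89 to -0.06), and turned to 0.26 when each nucleus was thinned to 500 UMIs.

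In oligodendrocyte-like nuclei 13 members had at least 50 UMIs, of which 2 were at least 1.5-fold higher and 2 lower, against 6.35% and 6.71% of 1103 genes. Arid5b stood at 212 CPM (146 to 297) in control and 408 CPM (316 to 519) in epilepsy, a log2 ratio of 0.95 (0.32 to 1.60), and at 0.47 among nuclei with at least 500 detected genes. Hdac8 stood at 173 CPM in control and 259.7 CPM in epilepsy, with an interval that held 0. The H3 lysine 4 methyltransferase Kmt2c (chr5:25271798-25498783) stood at 353 CPM (266 to 459) in control and 173 CPM (115 to 250.3) in epilepsy, a ratio of -1.03 (-1.74 to -0.34). Kmt2e, a family member that binds this mark, stood at 378 CPM in control and 235 CPM in epilepsy, a ratio of -0.69 (-1.31 to -0.07), and it overlaps Srpk2 on the other strand. With mixed clusters kept in their class these ratios were -0.36 for Kmt2c and -0.19 for Kmt2e, and with at least 500 detected genes per nucleus that of Kmt2e was -2.30. The 5 Kmt2 genes in sum held 0.0904% of the UMIs in control and 0.0668% in epilepsy (log2 ratio -0.44, -0.81 to -0.06). These counts are low: Kmt2c had 55 UMIs in control and 28 in epilepsy.

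Beside the members, 126 other chromatin genes were listed with the members' partners, and all were in the files. They were acetyltransferases, sirtuins, Polycomb, other methyltransferases, COMPASS, other BAF subunits, corepressors, other remodelers and DNA methylation genes. In CA1 pyramidal-like nuclei 107 had at least 100 UMIs. Of these, 3 were at least 1.5-fold higher in epilepsy and 0 lower, beside 5.38% and 3.66% of all genes, with a median log2 ratio of 0.04. Asxl3, a Polycomb-related cofactor, stood at 143 and 323 CPM, a log2 ratio of 1.18 (1.08 to 1.28). Ezh2, the Polycomb methyltransferase of H3 lysine 27, stood at 12.8 and 27.6 CPM, a log2 ratio of 1.10 (0.76 to 1.45). Kmt5c, a methyltransferase of H4 lysine 20, stood at 6.68 and 12.2 CPM, a log2 ratio of 0.87 (0.36 to 1.37). By list, 2 of 16 counted Polycomb genes and 1 of 11 other methyltransferases were past 1.5-fold, all higher, beside the same 5.38% of all genes. In the other lists the counts were 0 of 10 acetyltransferases, 0 of 6 sirtuins, 0 of 9 COMPASS genes, 0 of 17 other BAF subunits, 0 of 16 corepressors, 0 of 13 other remodelers and 0 of 9 DNA methylation genes. Of the 17 other BAF subunits, 11 lay above 0, with a median log2 ratio of 0.10 before the TMM shift of -0.09. The share of all genes above 0 is not set beside this count, so it is not read as a result about the complex. Within 1.5-fold, Bcl11b had a ratio of 0.55 (0.49 to 0.62), Brd9 0.45 (0.37 to 0.53) and Actb -0.52 (-0.72 to -0.33).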

How the data were processed

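The deposited matrices hold raw UMI counts per gene and nucleus. Per the submitters' processing notes, reads were handled with Cell Ranger 2.2.0 and FastQC on GRCm38/mm10; the annotation, the choice of barcodes, the counting of introns and the use of strand were not given in the sources used here. Per the labels' protocols, 15000 nuclei were loaded and 75 bp paired-end reads taken.

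The 3% of nuclei with the highest doublet scores per library were removed (Scrublet's own cut marked 4 and 3). Log-normalised counts were centred by library over 2000 variable genes (scanpy 1.11.5) that exclude the members, and clustered with leidenalg 0.10.2 (30 components, 20 neighbours, Leiden resolution 1). Clusters were named from fixed markers; non-glutamatergic clusters with pyramidal markers at 0.5 or more of the pyramidal level (83 control and 89 epilepsy nuclei) were left out, a rule set, like the sublayer thresholds, after the clusters were seen. UMIs were summed per class and library; TMM factors (edgeR 4.0.16) were an alternative scaling. A member was counted in a class with at least 100 UMIs (50 in interneuron-like and oligodendrocyte-like nuclei). Named members are the 8 highest and 8 lowest in CA1 pyramidal-like nuclei, 4 and 4 in other classes and 5 and 5 between classes, by the interval bound nearest to 0, and the member with most UMIs of each family; other members are given for their role in a family or complex. Positions are from GENCODE M21 (GRCm38). The ratios and their intervals were run on simulated counts with counting error only. That simulation held no differences between nuclei, animals or libraries, so it is no check on those. The members, gene lists and pairs were chosen with earlier results of these data known. The 19 members not in the promoter table were Arid2, Arid3a, Arid4a, Chd1, Chd2, Chd3, Chd7, Hdac1, Hdac10, Hdac3, Kdm2a, Kdm3b, Kdm4b, Kdm5a, Kdm6b, Kmt2b, Kmt2e, Setd1b and Smarce1.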

Additional observations from a re-analysis of the deposited data

Results flagged for a closer look

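Arid5b, an ARID-domain partner of a histone demethylase, lay on opposite sides of 0 in different cell classes. Its log2 ratio of epilepsy to control was 0.95 (0.32 to 1.60) in oligodendrocyte-like nuclei, -0.15 (-0.27 to -0.02) in CA1 pyramidal-like nuclei and -0.30 (-0.53 to -0.07) in superficial-like nuclei. In deep-like nuclei it was 0.10 (-0.11 to 0.30) and in interneuron-like nuclei 0.43 (-0.03 to 0.87), both with intervals that held 0. Among oligodendrocyte-like nuclei with at least 500 detected genes it was 0.47. Under the main setting the interval of the oligodendrocyte-like ratio does not overlap the pyramidal-like and superficial-like ones. Superficial-like nuclei are part of the pyramidal-like ones, so these 2 are not separate readings. With 1 library per condition the difference between the classes was not tested.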

How the results depend on the processing

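No paired analysis was possible because each condition has 1 library, and no library could be left out for the same reason. In CA1 pyramidal-like nuclei, 3 members at least 1.5-fold higher in epilepsy became 1 with the minimum of UMIs doubled or with nuclei thinned to 1000 UMIs, and 0 when thinned to 500 UMIs. Fewer members then met the minimum (64, 58 and 50 of the 74). Thinned to 1000 and to 500 UMIs, Chd7 was at 1.01 and 0.71, Kdm4d at 1.64 and 2.60 and Setd1a at 1.18 and 0.69. These values are past 1.5-fold but rest on fewer UMIs than the main ratios. They are given without intervals and are no check of the size of the main ratios. The 0 lower became 1 with doublets kept or the minimum halved. The 3 other chromatin genes that were higher became 1 when thinned to 1000 UMIs, and 0 lower became 1 when thinned to 1000 or to 500 UMIs. TMM factors (edgeR) shifted all log2 ratios by -0.09 in pyramidal-like and -0.11 in superficial-like nuclei. Over the settings that gave a value, the members' median log2 ratio ranged from -0.09 to 0.02 (pyramidal-like), -0.06 to 0.08 (deep-like), -0.08 to 0.05 (superficial-like), -0.34 to 0.06 (interneuron-like) and -0.37 to 0.09 (oligodendrocyte-like). Counts past 1.5-fold elsewhere ranged from 0 to 6. Ratios that turned were Hdac5 in interneuron-like nuclei (0.26 when thinned to 500 UMIs) and, between sublayers in epilepsy, Chd4 (-0.0061) and Kdm7a (0.036) with a split at the median of the marker score and Kdm7a when thinned to 500 UMIs (0.10). That split also brought the Smarca2 sublayer ratios to 0.68 and 0.87, with deep-like Smarca2 in epilepsy against control at -0.16; the cause was not tested. Chd7 in deep-like nuclei was 1.27 when thinned to 1000 UMIs. In superficial-like nuclei Chd7 was 0.24 when thinned to 500 UMIs. At Leiden resolution 0.5 there was no oligodendrocyte-like class, and thinning to 1000 UMIs left too few such nuclei. Settings for mixed clusters, 500 UMIs, low-UMI nuclei, other chromatin genes and pairs were chosen after seeing the data.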
